A study of Mus musculus with 7 samples.

Results

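The TNF receptor superfamily genes described here are the 5 genes whose symbol begins with Tnfrsf in the authors' deposited table of splenic B cell RNA, out of 752 genes that the table lists. They are Tnfrsf13b, which encodes TACI, Tnfrsf13c, which encodes the BAFF receptor, Tnfrsf1b, which encodes TNF receptor 2, Tnfrsf19, which encodes TROY, and Tnfrsf11a, which encodes RANK. Both groups of mice were on a C57BL/6J background, with spleens of 4 wild-type mice (WT) and 3 Batf knockout mice (Batf KO), per the design text. The sources used here do not state the knockout allele or the age of the mice. Spleen B cells of both groups were purified on magnetic columns and then cultured for 6 h with LPS, a bacterial ligand of TLR4, at 20 µg/mL and IL-4 at 20 ng/mL. Both groups were therefore stimulated, and the comparison asks which transcripts differed early in activation where Batf, a basic leucine zipper factor of the AP-1 family, was disrupted.

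Most receptors of this superfamily bind trimeric ligands of the TNF family. They pass the signal on through TRAF adaptors or, for a subset, through death domain adaptors, and NF-kappaB is a main target of both. BAFF and APRIL are the ligands that matter most to B cells: the BAFF receptor binds BAFF and keeps mature B cells alive through the non-canonical NF-kappaB pathway, whereas TACI binds both ligands, restrains B cell numbers and takes part in class switching and antibody responses that need no T cell help. TNF receptor 2 binds TNF and lacks a death domain. RANK, the receptor for RANKL, is best known from osteoclasts and lymph node development, and TROY from skin and the nervous system.

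The table is a selected one. It holds 752 genes, or 3.81% of the 19734 genes the authors tested, and each of them has a false discovery rate (FDR) of at most 0.0499 in the authors' deposited table. The 5 Tnfrsf genes are thus those of 20 annotated Tnfrsf genes that passed the authors' threshold, and the other 15 have no value here. Because the genes were selected on the contrast of the genotypes, their differing between the groups is not independent evidence, and the values below describe size, spread and direction. Effective library sizes, the read totals by which the authors scaled their counts, ranged from 24891094 to 44728937 reads in WT and from 23675459 to 30844920 in Batf KO. Batf itself was 307 to 333 CPM (reads scaled to the same total in each library) in WT and 63.4 to 70.3 CPM in Batf KO, and the groups did not overlap. The WT libraries fell into pairs over the listed genes: the chi-square per degree of freedom was 18.8 between replicates 1 and 2, 21.2 between 3 and 4 and 34.2 to 50.6 for the remaining pairs. The titles of WT replicates 3 and 4 bear numbers apart from those of the other 5 libraries, no label says what this marks, and values against each pair are given where they matter. In RNA from a whole culture, fewer cells of a type and less RNA per cell cannot be told apart.

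Tnfrsf13b fell in Batf KO, below each WT library, and Tnfrsf13c, Tnfrsf1b and Tnfrsf19 rose. Tnfrsf11a was also higher in each Batf KO library but did not pass the test. The calls rest on edgeR's quasi-likelihood test with Benjamini-Hochberg adjustment over all 19734 genes, genes without a fit being counted as not different, and an adjusted p under 0.05 was called. By this rule 3 of the 5 Tnfrsf genes were higher and 1 was lower, beside 20.1% and 22.8% of the 667 genes fitted (42.9% in either direction). Adjusted over the fitted genes of the table alone, all 5 were called, as were 100% of the fitted genes. The groups did not overlap for any of the 5 genes, which was also so for 96.1% of the fitted genes. The plot of CPM by library shows these values.

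**Figure D1:**
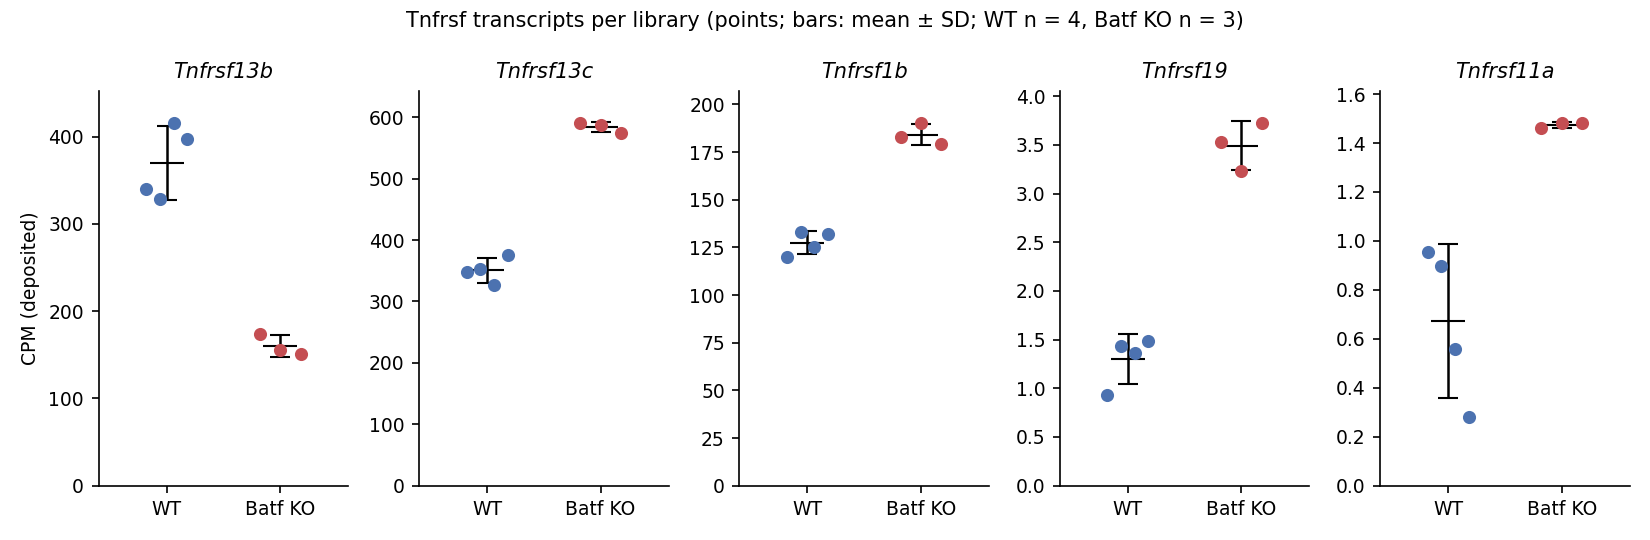
Deposited CPM of the 5 Tnfrsf genes in each library (points), with the mean and SD of WT (blue, n = 4) and Batf KO (red, n = 3). Each panel has its own axis, starting at 0. Tnfrsf13b lies lower in Batf KO (151 to 174 CPM) than in WT (328 to 415 CPM), and the other 4 lie higher.

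Tnfrsf13b (ENSMUSG00000010142, chromosome 11, 61126755 to 61149372, plus strand, GRCm38) was the one member with less RNA in Batf KO. WT replicates 1 to 4 had 340, 328, 415 and 397 CPM, and Batf KO replicates 1 to 3 had 174, 155 and 151 CPM. All 3 Batf KO libraries lay far below the lowest WT library, and WT replicates 3 and 4 lay above WT replicates 1 and 2. The group means were 370 ± 42.7 CPM (SD, n = 4) in WT and 160 ± 12.3 CPM (SD, n = 3) in Batf KO. Tnfrsf13b fell by 1.21 on the log2 scale (SE 0.10, edgeR adjusted p = 0.000756), a 2.31-fold decrease. In size this was place 78 among the 667 fitted genes. With WT replicates 1 and 2 alone as controls the log2 fold change of Tnfrsf13b was -1.06 (SE 0.08, edgeR adjusted p = 0.00502), and with replicates 3 and 4 alone it was -1.34 (SE 0.09, edgeR adjusted p = 0.000431).

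Tnfrsf13c (ENSMUSG00000068105, chromosome 15, 82221743 to 82224369, minus strand) moved the opposite way. Its values were 348, 353, 327 and 376 CPM in WT replicates 1 to 4 and 590, 587 and 575 CPM in Batf KO replicates 1 to 3. The Batf KO libraries were nearly equal to one another and all above the highest WT library. The means were 351 ± 20.0 CPM (SD, n = 4) in WT and 584 ± 8.15 CPM (SD, n = 3) in Batf KO. Tnfrsf13c rose by 0.73 on the log2 scale (SE 0.06, edgeR adjusted p = 0.000714), a 1.66-fold increase. Its WT libraries had a coefficient of variation of 5.71%, against 11.5% for Tnfrsf13b.

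Tnfrsf1b (ENSMUSG00000028599, chromosome 4, 145213463 to 145246870, minus strand) also rose, by less. WT replicates 1 to 4 had 120, 133, 125 and 132 CPM, and Batf KO replicates 1 to 3 had 183, 190 and 179 CPM. Here too the lowest Batf KO library stood above the highest WT library. The means were 127 ± 6.03 CPM (SD, n = 4) and 184 ± 5.26 CPM (SD, n = 3). The log2 fold change was 0.53 (SE 0.06, edgeR adjusted p = 0.00367), a 1.44-fold increase, which ranked 422 in size among the 667 fitted genes.

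These 3 receptor genes carried most of the Tnfrsf reads, and their upstream sequences are shown because they moved in different directions. RefSeq promoters (GRCm38.p6) were found for all 5 Tnfrsf genes, 6 windows in all, since Tnfrsf19 has 2 annotated starts. Each search window ran from 250 bases before the start to 50 after it, and the 250 upstream bases are printed 5′ to 3′ on the gene's own strand. Capitals mark each match, on either strand, to an NF-kappaB pattern (GGG, any 5 bases, CC) or to an IRF repeat (GAAA, any 2 bases, GAAA), and matches can overlap.
Tnfrsf13b, chr11:61126505-61126754, plus strand: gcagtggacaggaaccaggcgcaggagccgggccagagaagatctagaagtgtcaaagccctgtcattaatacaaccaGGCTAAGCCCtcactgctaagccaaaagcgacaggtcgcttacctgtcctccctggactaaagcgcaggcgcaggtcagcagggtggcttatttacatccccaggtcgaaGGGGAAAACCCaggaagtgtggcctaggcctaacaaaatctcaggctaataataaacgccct
Tnfrsf13c, chr15:82224381-82224630, minus strand: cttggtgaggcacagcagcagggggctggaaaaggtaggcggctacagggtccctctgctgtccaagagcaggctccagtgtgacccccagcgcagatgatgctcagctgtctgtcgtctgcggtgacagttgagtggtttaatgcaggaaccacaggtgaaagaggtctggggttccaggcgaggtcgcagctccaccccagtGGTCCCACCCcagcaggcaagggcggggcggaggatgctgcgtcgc
Tnfrsf1b, chr4:145246871-145247120, minus strand: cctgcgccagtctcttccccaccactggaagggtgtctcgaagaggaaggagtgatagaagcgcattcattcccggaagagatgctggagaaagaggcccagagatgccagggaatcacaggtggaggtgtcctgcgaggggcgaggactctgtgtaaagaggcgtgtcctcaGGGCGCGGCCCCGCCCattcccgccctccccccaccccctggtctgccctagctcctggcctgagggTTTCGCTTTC

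The NF-kappaB pattern was present in 4 of the 6 windows, namely those of Tnfrsf13b, Tnfrsf13c, Tnfrsf1b and Tnfrsf11a, and in 50.8% of all 32851 RefSeq promoter windows of the same length, so such a match is common. The IRF repeat was present in that of Tnfrsf1b, where it ends at the base before the start, and in 3.44% of all windows. The AP-1 pattern TGANTCA was in 0 of the 6 windows and in 7.81% of all windows. The composite patterns of AP-1 with an IRF half-site, were searched as GAAA directly before TGANTCA and as TTTC, any 4 bases and TGANTCA. They were in 0 of the 6 windows and in 0.125% and 0.119% of all windows. The STAT6 pattern (TTC, any 4 bases, GAA) was also in 0 of the 6 windows and in 6.95% of all. These are matches of letters in short windows, and no binding was measured.

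The opposite moves of the BAFF receptor genes changed their ratio, in which library size cancels. For each Tnfrsf13c read there were 0.977, 0.928, 1.27 and 1.05 Tnfrsf13b reads in WT replicates 1 to 4, and 0.295, 0.264 and 0.262 in Batf KO replicates 1 to 3. The mean ratio was 1.06 ± 0.151 (SD, n = 4) in WT and 0.274 ± 0.0183 (SD, n = 3) in Batf KO, a 3.86-fold difference with no overlap. Both genes were selected for differing and moved in opposite directions without overlap. Their ratio therefore had to differ as well, and it restates those moves without adding evidence. Tnfrsf1b and Tnfrsf13c kept more similar proportions, with 0.345 to 0.382 Tnfrsf1b reads per Tnfrsf13c read in WT and 0.310 to 0.323 in Batf KO. Of the other BAFF and APRIL genes, the receptor gene Tnfrsf17 and the ligand genes Tnfsf13b and Tnfsf13 are not among the listed genes and have no value here.

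**Figure D2:**
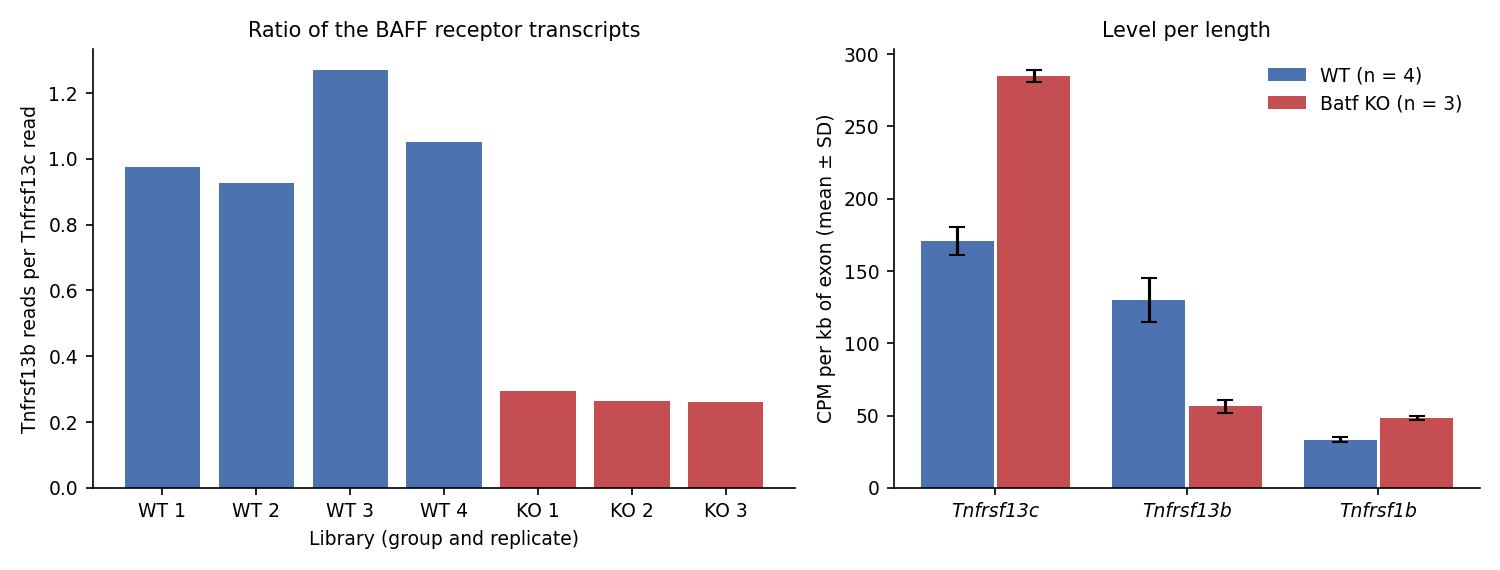
Left, Tnfrsf13b reads per Tnfrsf13c read in each library, which is 0.928 to 1.27 in WT (blue) and 0.262 to 0.295 in Batf KO (red). Right, mean CPM per kilobase of annotated exon with SD for the 3 most abundant Tnfrsf genes, where Tnfrsf13c is highest in both genotypes and the Tnfrsf13b bar falls close to that of Tnfrsf1b in Batf KO.

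Levels were compared between genes per kilobase of annotated exon. In WT, Tnfrsf13c was highest at 171 ± 9.78 CPM per kb (SD, n = 4), followed by Tnfrsf13b at 130 ± 15.1 and Tnfrsf1b at 33.4 ± 1.58 CPM per kb. Tnfrsf19 followed at 0.275 ± 0.0536 and Tnfrsf11a at 0.112 ± 0.0524 CPM per kb. The order was the same in Batf KO, at 285 ± 3.98 (SD, n = 3), 56.4 ± 4.34, 48.2 ± 1.38, 0.737 ± 0.0521 and 0.246 ± 0.00221 CPM per kb. No neighbours in either order overlapped between libraries, and in Batf KO Tnfrsf13b (53.1 to 61.3 CPM per kb) lay close above Tnfrsf1b (47.0 to 49.7 CPM per kb). The exon lengths are from GENCODE M21, and no source used here names the annotation on which the authors counted. The order rests on these lengths, taken over all annotated transcripts of a gene, and the lack of overlap does not cover an error in them. In mean CPM, Tnfrsf13b lay below Tnfrsf1b in Batf KO (160 against 184) and above Tnfrsf13c in WT (370 against 351).

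Tnfrsf19 (ENSMUSG00000060548, chromosome 14, 60963875 to 61046490, minus strand) was carried by few reads. It had 37, 43, 61 and 37 reads in WT replicates 1 to 4 and 109, 87 and 88 reads in Batf KO replicates 1 to 3, or 0.928 to 1.49 CPM against 3.23 to 3.72 CPM. Each Batf KO library was above each WT library on the CPM scale. Tnfrsf19 rose by 1.43 on the log2 scale (SE 0.20, edgeR adjusted p = 0.00951), a 2.70-fold increase. The pooled ratio of reads per library size was 2.73, with an exact 95% interval of 2.26 to 3.32 that covers counting error only. The call was lost without Batf KO replicate 1 (log2 fold change 1.42, edgeR adjusted p = 0.0557) and with WT replicates 1 and 2 as the sole controls (1.58, edgeR adjusted p = 0.0555). Of the gene's exon bases, 376 lie within Gm41168, a noncoding RNA gene on the opposite strand, and since no source used here states the strand setting of the counting, reads of the pair cannot be told apart there.

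Tnfrsf11a (ENSMUSG00000026321, chromosome 1, 105780718 to 105847981, plus strand) was the least abundant. WT replicates 1 to 4 had 38, 27, 25 and 7 reads, and Batf KO replicates 1 to 3 had 45, 40 and 35 reads. On the CPM scale this was 0.953, 0.897, 0.559 and 0.281 in WT and 1.46, 1.48 and 1.48 in Batf KO. The Batf KO libraries were alike, and the WT libraries ranged widely below them. The log2 fold change was 1.10 (SE 0.34), and the edgeR adjusted p of 0.339 did not pass, while the authors' deposited table gives an FDR of 0.0296. The pooled ratio of reads per library size was 2.12, with a 95% counting interval of 1.61 to 2.80. Its size depended on the WT pair. The log2 fold change was 0.67 (SE 0.21, edgeR adjusted p = 0.631) against WT replicates 1 and 2, and 1.72 (SE 0.34, edgeR adjusted p = 0.0612) against WT replicates 3 and 4.

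Of 8 receptor genes of the superfamily that carry other symbols (Cd40, Cd27, Fas, Ltbr, Ngfr, Relt, Edar and Eda2r), Cd40 alone is listed. Cd40, the receptor for the CD40 ligand of helper T cells, was 307 to 337 CPM in WT and 391 to 415 CPM in Batf KO. It rose by 0.33 on the log2 scale (SE 0.06, edgeR adjusted p = 0.0261). This call is fragile: it was lost when any library other than WT replicate 2 was left out, with adjusted p between 0.0685 (without WT replicate 4) and 0.140 (without Batf KO replicate 2). The values without Batf KO replicates 1 and 3 were 0.130 and 0.0689, and without WT replicates 1 and 3 they were 0.0765 and 0.0724. None of 19 TNF family ligand genes is listed.

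Among 32 genes for adaptors and proximal signalling of these receptors, 9 are listed, 8 lower and 1 higher in Batf KO, and 5 passed the test, all of them lower. Of all 19734 genes the authors tested, 3.81% are listed. Of all 752 listed genes 368 are lower, 42.9% of the 667 fitted genes passed and 22.8% passed as lower. The median log2 fold change of the 9 genes was -0.46, and no test of the list was made. Over all 667 fitted genes the median was 0.30, with 339 genes higher and 328 lower. Because genes with little change were not selected, that 0.30 lies among the smallest rises and is not a typical change. Map3k14 encodes NIK, the kinase that starts the non-canonical NF-kappaB pathway downstream of the BAFF receptor and CD40. Map3k14 was 41.0 to 43.6 CPM in WT and 26.2 to 29.9 CPM in Batf KO, and fell by 0.59 on the log2 scale (SE 0.08, edgeR adjusted p = 0.00710). Casp8, the initiator caspase of death receptors, was 92.9 to 101 CPM in WT and 58.2 to 65.6 CPM in Batf KO, and fell by 0.66 on the log2 scale (SE 0.07, edgeR adjusted p = 0.00256). Casp8 kept its call under each alternative, and Map3k14 under each but 1, the controls being WT replicates 1 and 2 alone (edgeR adjusted p = 0.0564). The authors' deposited FDR and the adjustment over the fitted genes alone call every gene, so those alternatives could lose no call. In both genes the lowest WT library lay above the highest Batf KO library. Such a lack of overlap was seen in 96.1% of the 667 fitted genes.

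The other 3 that fell were Otulin, a deubiquitinase that removes linear ubiquitin chains (log2 fold change -0.46, SE 0.08, edgeR adjusted p = 0.0281), Tab2, a subunit of the TAK1 kinase complex (-0.43, SE 0.07, edgeR adjusted p = 0.0203), and Tank, a TRAF-binding adaptor (-0.32, SE 0.06, edgeR adjusted p = 0.0323). These 3 calls were less stable. Tank lost its call without each library other than WT replicate 2 (edgeR adjusted p = 0.0859 to 0.166). Otulin lost it without Batf KO replicate 2 (0.158) or 3 (0.118) or WT replicate 2 (0.0643), 3 (0.0809) or 4 (0.0627). Tab2 lost it without Batf KO replicate 1 (0.105), 2 (0.0947) or 3 (0.0956) or WT replicate 3 (0.0544) or 4 (0.0556). Among genes that did not pass with all libraries, Traf3ip3 had a log2 fold change of -0.55 (edgeR adjusted p = 0.0730), Tnip3 of -0.74 (0.156) and Cyld, another deubiquitinase, of -0.26 (0.0712). Birc2, which encodes the ubiquitin ligase cIAP1, was the one listed gene of this group with a higher mean in Batf KO, 426 ± 20.4 CPM (SD, n = 3) against 321 ± 30.4 CPM (SD, n = 4) (log2 fold change 0.41, edgeR adjusted p = 0.0572). The number of genes called lower was 3 without Batf KO replicate 1, and 2 without Batf KO replicate 2, Batf KO replicate 3, WT replicate 3 or WT replicate 4. It was 1 against WT replicates 1 and 2 alone and 3 against WT replicates 3 and 4 alone. Over all 667 fitted genes the number called lower also fell, from 152 with all libraries. It was 82, 78 and 86 without Batf KO replicates 1, 2 and 3, and 115 and 112 without WT replicates 3 and 4. Against WT replicates 1 and 2 alone it was 85, and against WT replicates 3 and 4 alone 131.

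Of 15 NF-kappaB subunit, inhibitor and IKK genes, Nfkbid is listed and the rest have no value here. Nfkbid, an atypical nuclear inhibitor of the IkappaB family, was 217 to 236 CPM in WT and 284 to 342 CPM in Batf KO and rose by 0.49 on the log2 scale (SE 0.07, edgeR adjusted p = 0.0136). Its call was lost without Batf KO replicate 1 (edgeR adjusted p = 0.0837) or replicate 2 (0.0842). It was also lost against WT replicates 1 and 2 alone (0.095) and against WT replicates 3 and 4 alone (0.0641). The receptor genes and their signalling genes are set side by side in the plot of log2 fold changes.

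**Figure D3:**
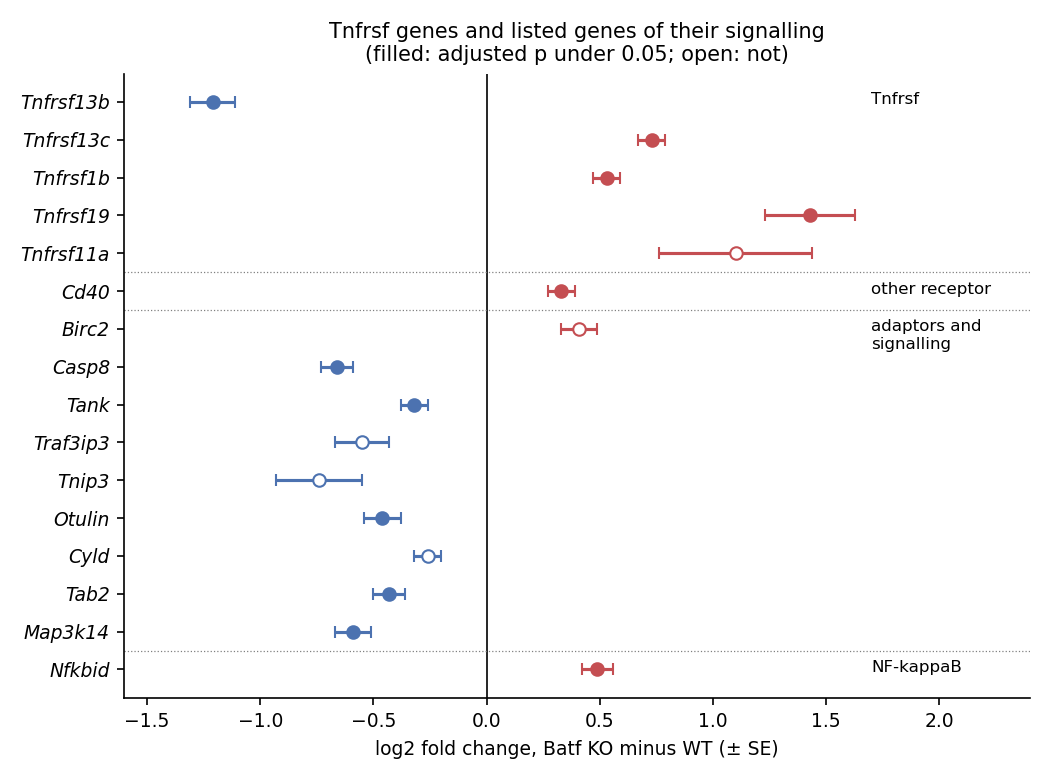
Log2 fold change (Batf KO minus WT, ± SE) of the 5 Tnfrsf genes and of the 11 listed genes of the receptor, adaptor and NF-kappaB lists, filled where the edgeR adjusted p was under 0.05. Of the 5 Tnfrsf genes, 4 lie to the right of 0, and 8 of the 9 adaptor and signalling genes lie to the left.

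Other cells of the spleen also express members of this family, and few of their markers are listed. Of 12 T and NK cell markers, Cd8b1 is listed, at 1.48 to 2.59 CPM in WT and 5.24 to 7.42 CPM in Batf KO (log2 fold change 1.65, SE 0.24, edgeR adjusted p = 0.0130). This call was lost without Batf KO replicate 1 (0.0805) or replicate 2 (0.0765), and against WT replicates 1 and 2 alone (0.0744). Of 11 myeloid markers Zbtb46 (edgeR adjusted p = 0.0744), of 4 plasma cell markers Prdm1 (0.276) and of 5 erythroid and platelet markers Pf4 (0.175, fitted without the CPM filter) are listed. None of these passed with all libraries. Under some alternatives Zbtb46 and Prdm1 passed, such as Zbtb46 without WT replicate 4 (0.0447) and Prdm1 against WT replicates 3 and 4 alone (0.0359). Of 10 B cell markers, Ms4a1 and Ighm are listed. Ms4a1, which encodes CD20, was 533 to 613 CPM in WT and 832 to 905 CPM in Batf KO. It passed the test (log2 fold change 0.60, SE 0.07, edgeR adjusted p = 0.00392). Ighm was 1490 to 1890 CPM in WT and 1130 to 1280 CPM in Batf KO and did not pass (-0.44, SE 0.09, edgeR adjusted p = 0.0634). Ighm did pass under some alternatives, such as against WT replicates 3 and 4 alone (edgeR adjusted p = 0.0367). The remaining markers have no value here, so the summed level of a list could not be formed, and the part of other cells in the Tnfrsf values was not tested.

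For each Tnfrsf gene, the 2 fitted genes with the most similar profile were taken by Pearson's r of log2(CPM + 0.5) over the 7 libraries. These libraries form 2 genotypes, and the table was selected by the authors' FDR for genes that differ between them, so the high r values chiefly rank genes by how they vary inside and between the genotypes and carry no test. Tnfrsf13b was closest to Tmem154 (r = 0.998), a transmembrane protein gene at 3.89 to 5.46 CPM in WT and 1.01 to 1.56 CPM in Batf KO, and to Slc25a53 (r = 0.996). Tnfrsf13c was closest to Lims1 (r = 0.996), which encodes an adaptor of integrin adhesions, and to Vsir (r = 0.993), which encodes the immune checkpoint protein VISTA. Vsir was also the closest gene to Tnfrsf1b (r = 0.997), followed by Sytl3 (r = 0.994). Vsir was 19.2 ± 1.63 CPM in WT (SD, n = 4) and rose to 39.4 ± 3.05 CPM in Batf KO (SD, n = 3). Tnfrsf19 was closest to Gm14269 (r = 0.994) and to the 5S ribosomal RNA gene n-R5s64 (r = 0.984), and Tnfrsf11a to Necap2 (r = 0.997) and Uhrf1 (r = 0.977). Gm14269, Necap2 and Uhrf1 did not pass the test (edgeR adjusted p = 0.0654, 0.178 and 0.0571).

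Across 18 alternatives in scaling, test, filter and libraries, Tnfrsf13b, Tnfrsf13c and Tnfrsf1b kept their direction and their call. Among these, the authors' deposited FDR calls all 752 listed genes, and adjustment over the fitted genes alone calls all 667. Keeping a call under those settings is therefore no evidence of stability. The groups did not overlap for Tnfrsf13b, Tnfrsf13c or Tnfrsf1b, so leaving out libraries could not reverse a direction. These genes were also selected on the same libraries, so a call kept under the other settings is not independent evidence. Under the other settings with 667 genes fitted, from 128 (without Batf KO replicate 2) to 569 (DESeq2) were called. The log2 fold change of Tnfrsf13b ranged from -1.34 to -1.06, that of Tnfrsf13c from 0.67 to 0.77 and that of Tnfrsf1b from 0.47 to 0.55. The 2 low genes ranged more widely, Tnfrsf19 from 0.74 to 1.58 and Tnfrsf11a from 0.39 to 1.72, with the lowest value of each where 2 CPM were added before the log.

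**Figure D4:**
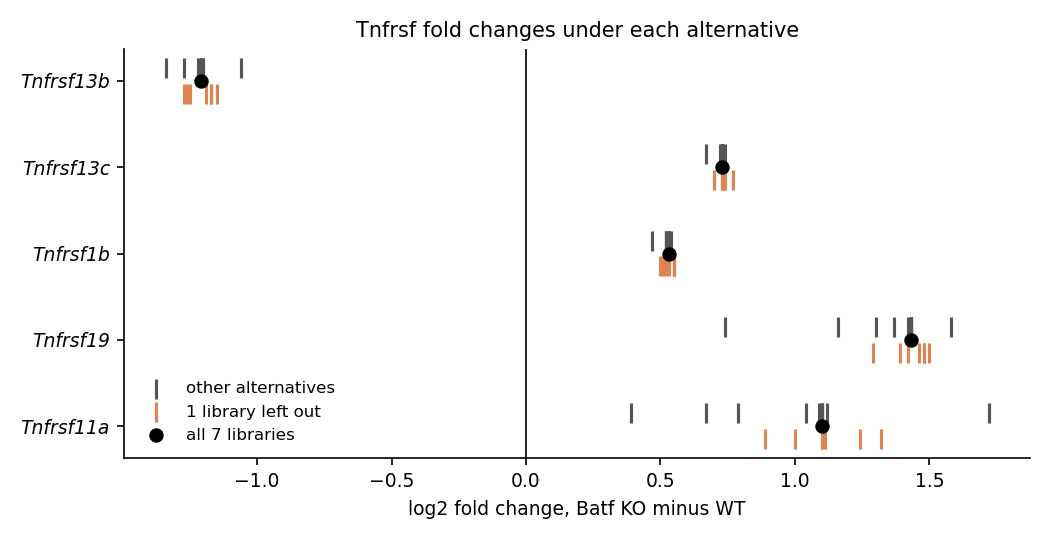
Log2 fold change (Batf KO minus WT) of each Tnfrsf gene with all 7 libraries (black), with 1 library left out (orange) and under the other alternatives (grey). The abundant genes stay in narrow ranges, such as 0.47 to 0.55 for Tnfrsf1b, and Tnfrsf11a spreads from 0.39 to 1.72.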

How the data were processed

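RNA-seq of 4 WT and 3 Batf KO spleen B cell cultures was used, grouped by the genotype label. The design text also mentions 2 replicates per sample, without saying what these were, and a library was taken to stand for 1 mouse, an assumption no sample label states. HTSeq 0.5.3p7, TopHat2 2.0.6, the build mm10 and edgeR 3.03 are named, without roles, in the submitters' processing notes. Per the file headers, the deposited table gives read counts, the CPM computed by the authors, and the authors' log2 fold change, likelihood ratio (a score), p-value and FDR. Library sizes were recovered as count divided by CPM, and the number of genes tested from the ratio of FDR to p-value. The 667 genes of 752 whose CPM averaged 1 or more over the libraries were tested two-sided in R 4.3.3 with edgeR 4.0.16 (quasi-likelihood), adjusted by Benjamini-Hochberg over 19734 genes, those without a fit counted as not different. The SE is the log2 fold change divided by the square root of F. Dispersions were estimated on selected genes, which can make p-values too small. All 5 Tnfrsf genes passed the filter, Tnfrsf11a and Tnfrsf19 with few reads. The script was tested on simulated counts in which most genes were unchanged. The deposited table is selected, so that test does not give the error rate here. Alternatives were DESeq2 1.42.0, limma 3.58.1 on log2(CPM + 0.5) or log2(CPM + 2), other scalings, filters and adjustments, and libraries left out. Positions are from GENCODE M21 (GRCm38, the assembly also called mm10), 1-based, by Ensembl identifier. Named genes were the Tnfrsf rows, listed genes of the pathway and marker lists, Batf, and the 2 genes most alike in profile to each Tnfrsf gene. The members, lists and rules were chosen with earlier results of these data known. Pairs of libraries within a group were checked by chi-square, and each pair differed by more than sampling noise (17.1 or more per degree of freedom), so none was treated as a copy.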

Additional observations from a re-analysis of the deposited data

How the results depend on the processing

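No alternative reversed the direction of any Tnfrsf gene or of the 17 other genes recomputed. The groups did not overlap in CPM for any of these genes, so leaving out libraries could not reverse a direction. Scaling over the listed genes shifted all genes by only -0.061 (TMM) and -0.010 (DESeq2 size factors) on the log2 scale. The kept directions are therefore no evidence of stability. Tnfrsf19 had a log2 fold change of 1.58 against WT replicates 1 and 2 alone, where its call was lost, and of 1.29 to 1.50 with a library left out, where it was lost without Batf KO replicate 1. At a mean CPM of at least 5, Tnfrsf19 and Tnfrsf11a had no value. Tnfrsf11a (log2 fold change 1.10) was called when adjusted over the fitted genes of the table alone (edgeR adjusted p = 0.0115) and in the authors' deposited table (FDR 0.0296), but that first adjustment calls 100% of the fitted genes. DESeq2 called 569 of the 667 genes, against 286 by edgeR, and gave Tnfrsf11a an adjusted p of 0.416.

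Counts for the lists moved more, and the count called over all 667 fitted genes moved too. That count was 286 with all libraries, 155 against WT replicates 1 and 2 alone and 250 against WT replicates 3 and 4 alone. It was 128 to 263 with 1 library left out, 322 under TMM scaling over the listed genes and 569 by DESeq2. Cd40, the 1 listed receptor with another symbol, gave a count of 0 under TMM scaling over the listed genes, against WT replicates 1 and 2 alone and against WT replicates 3 and 4 alone, and of 0 to 1 after leaving out 1 library. The adaptor genes called higher numbered 1 in place of 0 by DESeq2, over the fitted genes alone and in the authors' deposited table. Those called lower numbered 5 with all libraries, 8 over the fitted genes alone and in the authors' deposited table, 1 against WT replicates 1 and 2, 3 against WT replicates 3 and 4, and from 2 to 4 after leaving out 1 library. The NF-kappaB count of 1 became 0 against either pair of WT replicates and was 0 to 1 with a library left out. Adjustment over the fitted genes alone called 100% of them, and the authors' deposited table holds only genes past their FDR threshold. Under these settings the list counts are therefore those of all fitted or listed genes. For the other changes, which include those with fewer libraries, the cause was not tested. No paired analysis was possible because the titles share no replicate number between the groups. Depth limits Tnfrsf11a, which had 7 to 45 reads in a library, and Tnfrsf19, which had 37 to 109, and the WT pairs also differ for Tnfrsf11a (log2 fold change 0.67 and 1.72).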
